A study of Rattus norvegicus with 6 samples.

Results

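The p53 target genes described here were chosen by name, from a list of 35 symbols taken as targets of the transcription factor p53. Such genes are held to be switched on by p53, and the evidence for each was not examined here. The symbol Trp53inp1 is an older name of Tp53inp1, so the list names 34 genes, and all 34 were in the deposited table of 40456 genes. Of these, 32 had enough counts to be tested, among 14216 tested genes in all. The 2 others, Perp and Tnfrsf10b, had at most 0 and 1 counts in any library.

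The samples were 6 poly-A RNA sequencing libraries of H9c2 (2-1) cells, an established rat line that came from embryonic heart and can form muscle-like cells in culture. All carried the genotype WT and shared 5 days in medium with 1% serum and 1 µM retinoic acid, then 24 h with a 25 nM gapmer, a locked nucleic acid antisense oligonucleotide that directs RNase H to the RNA it pairs with. The control group (3 libraries) received the negative control gapmer and the knockdown group (3 libraries) a single gapmer against Tug1, a long non-coding RNA. With 1 gapmer sequence per group, effects of the sequence other than on Tug1 cannot be told apart from loss of Tug1. The labels do not say whether libraries of a group came from separate cultures, so p-values measure the spread between these libraries, which may be technical. The gapmer sequences are shown because they are the only difference between the groups that the labels give:
Tug1 gapmer: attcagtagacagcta
negative control gapmer: gctcccttcaatccaa

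Total counts ran from 12978548 to 13544337 per library. Tug1 itself was at 54.6, 51.9 and 55.3 CPM (counts scaled to library size, here by TMM) in control replicates 1 to 3 and at 11.9, 11.2 and 12.4 CPM in knockdown replicates 1 to 3, a log2 fold change of -2.19 (SE 0.0786). The labels call the cells cardiomyocytes. Of 10 cardiomyocyte markers, only Tnnt2, Actc1 and Myl2 were tested, while Nppb had 0 counts in all libraries and Myh6, Myh7 and Ryr2 had at most 1, 2 and 3 counts in any. All 8 skeletal muscle markers but Myf5 were tested, and 6 of those 7 rose, with a summed level of 896 to 908 CPM in controls and 1319 to 1407 CPM after knockdown. The 8 proliferation markers summed to 237 to 249 CPM in controls and 245 to 255 CPM after knockdown, with 5 higher and 1 lower. Most of that sum was Pcna (120 to 112 CPM, which did not pass) and Mcm2 (63.3 to 46.4 CPM, the lower marker). Among the 5 higher, Top2a went from 7.46 to 18.6 CPM. The cardiomyocyte markers summed to 345 to 379 CPM in controls and 407 to 459 CPM after knockdown, and the 6 fibroblast markers to 43050 to 44438 and 40232 to 43114 CPM. Most of the cardiomyocyte sum was Tnnt2 (348 to 410 CPM), and most of the fibroblast sum was Col1a1 and Col1a2. The tested fibroblast markers moved apart. Col3a1 was higher (log2 fold change 0.47), Col1a1 (-0.23), Thy1 (-0.40) and Postn (-0.47) were lower, and Col1a2 did not pass. The 4 endothelial markers summed to at most 3.70 CPM in any library. The 4 leukocyte markers summed to 2.91 to 4.95 CPM in controls and 6.66 to 8.79 CPM after knockdown, with Cd68 tested and Ptprc at 0 counts. The part of these shifts in the results on p53 target genes was not tested, and in bulk RNA fewer cells of a type and less RNA per cell cannot be told apart.

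As background, p53 is held low in unstressed cells by Mdm2, a ubiquitin ligase, and by its partner Mdm4, which blocks p53 on DNA. When DNA damage or other stress frees p53, it binds response elements made of a pair of similar 10-base sites and raises genes that stop the cell cycle, repair DNA, adjust metabolism or start apoptosis. Mdm2 is itself a target, which closes a feedback loop. Many of these genes also answer to other factors, so their mRNA alone is no measure of p53 activity.

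A promoter window from 250 bases before to 50 bases after the start was found in the RefSeq table (GRCr8) for 26 of the 34 genes, all but Bax, Bbc3, Cd82, Ddb2, Rrm2b, Tnfrsf10b, Tp53inp1 and Zmat3. It was searched for the p53 decamer, the 10-base consensus of a single site of the pair, which reads the same on both strands. An exact match stood in the windows of 7 of the 26 genes (26.9%), those of Aen, Ccng1, Ei24, Gadd45a, Pidd1, Sesn1 and Trim24, against 7.98% of all 33469 windows and 6.61% of the windows of tested genes. A pair of decamers at most 13 bases apart, each with up to 1 mismatch outside its C and G core, stood in 3 of the 26 (11.5%), Ccng1, Gadd45a and Pidd1, against 2.23% of all windows. The members were listed as p53 targets, so sites near some of them are no finding, and a match is a description of letters only. The Pidd1 matches lie after the start and are not shown. The upstream matches are shown to let the sequence be set beside the direction in which each gene moved, with the decamers in capitals, 5′ to 3′ on the gene's strand:
Ccng1, chr10:25685074-25685126, minus strand: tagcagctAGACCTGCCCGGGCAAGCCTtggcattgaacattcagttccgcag
Gadd45a, chr4:97486813-97486893, minus strand: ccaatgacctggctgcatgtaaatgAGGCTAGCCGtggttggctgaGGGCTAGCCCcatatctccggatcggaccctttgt
Aen, chr1:142224478-142224532, plus strand: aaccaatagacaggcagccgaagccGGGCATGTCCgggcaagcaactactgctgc
Ei24, chr8:44699416-44699475, minus strand: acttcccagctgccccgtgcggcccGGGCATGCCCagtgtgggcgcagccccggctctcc
Trim24, chr4:67534153-67534212, plus strand: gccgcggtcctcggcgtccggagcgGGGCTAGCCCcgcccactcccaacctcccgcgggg
Sesn1, chr20:46948522-46948581, plus strand: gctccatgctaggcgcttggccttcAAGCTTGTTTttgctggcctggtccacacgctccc

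The Ccng1 decamers abut, from 242 to 223 bases before the start, and the Gadd45a decamers begin 69 and 48 bases before it. The 7 genes with an exact match did not move one way. Aen, Ei24, Gadd45a and Trim24 were higher after knockdown, Ccng1 and Pidd1 lower, and Sesn1 did not pass the test.

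After knockdown the p53 target genes moved in both directions and mostly by less than 2-fold. Of the 32 tested, 27 (84.4%) were called by edgeR at an adjusted p under 0.05 (quasi-likelihood test), with 12 higher and 15 lower, beside a background of 61.7% of all tested genes. In the background 30.8% of tested genes were higher and 30.9% lower. The control and knockdown libraries did not overlap for 27 members (84.4%) and for 65.6% of all tested genes. The members were counted more deeply than most genes, with a median of 681 counts against 317. Among genes with a mean of at least 100 counts, 26 of 31 members (83.9%) and 69.9% of all genes passed. The median absolute log2 fold change was 0.38 for the members and 0.34 for all tested genes. A change of 0.5 or more on the log2 scale in either direction was called for 8 of the 32 members. Of all tested genes 31% were called at this size, and the difference between these shares was not tested. A single member, Dram1, was called at a change of 1 or more on that scale, as were 9.8% of all tested genes. The median signed log2 fold change was -0.09 for the members and 0.00 for all tested genes.

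**Figure D1:**
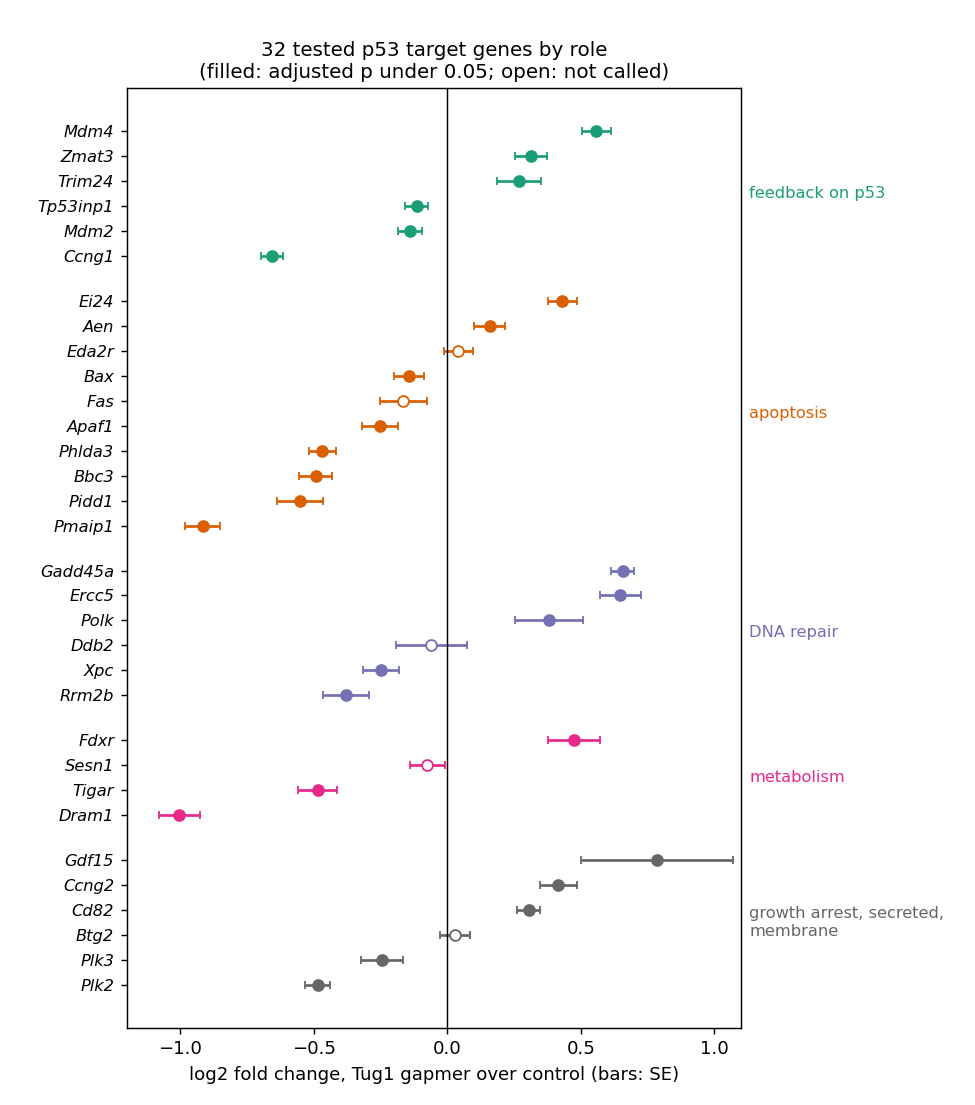
Log2 fold change (Tug1 gapmer over control gapmer, horizontal axis) of the 32 tested p53 target genes, grouped by role, with bars for the SE from 3 libraries per group; filled points passed an adjusted p of 0.05 and open points did not. Each role holds genes on both sides of 0, and values run from -1.003 for Dram1 to 0.79 for Gdf15, whose bar is the longest.

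The 6 genes that feed back on p53 or regulate it all passed the test, 3 higher and 3 lower. Beside this stand 61.7% of all tested genes and 69.9% of those with a mean of at least 100 counts. Each role holds few genes, and shares by role were not tested against the background. The partners Mdm2 and Mdm4, which restrain p53, moved apart. Mdm2 was at 364, 374 and 384 CPM in controls and at 331, 336 and 353 CPM after knockdown. Its knockdown libraries lay just under its control libraries, and the log2 fold change was -0.14 (SE 0.0442, adjusted p 0.00938 by edgeR). With library totals in place of TMM, Mdm2 did not pass (-0.09, adjusted p 0.0962 by edgeR).

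Mdm4, the Mdm2 relative without ligase activity of its own, was at 80.0, 80.5 and 82.5 CPM in controls and at 114, 117 and 127 CPM after knockdown. All knockdown libraries were above all controls, and its log2 fold change was 0.56 (SE 0.0546, adjusted p 7.21e-09 by edgeR). Mdm4 has the longest genomic span of the tested members, and with an offset for gene length its value was 0.30 (adjusted p 2.93e-05 by edgeR). Its span in GRCr8 also overlaps Pik3c2b, which was slightly lower (-0.17). Whether counting used strand is not given in the sources used here, so reads from the overlap cannot be assigned.

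Ccng1 encodes cyclin G1, which guides a phosphatase to Mdm2 and is a long-known p53 target. It was at 1383, 1415 and 1458 CPM in controls and at 899, 887 and 914 CPM after knockdown, so the groups lay far apart. The log2 fold change was -0.66 (SE 0.0405, adjusted p 3.55e-12 by edgeR), and it ran from -0.68 to -0.54 over the alternatives. Zmat3, an RNA-binding zinc finger protein, rose from 64.8 ± 3.43 to 80.5 ± 5.06 CPM (SD, n = 3), which gives a log2 change of 0.31 with no overlap between the groups.

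Trim24, a ubiquitin ligase that can act on p53, rose from 26.4 ± 2.15 to 31.8 ± 2.24 CPM (SD, n = 3; log2 fold change 0.27, SE 0.0816). It no longer passed with the length offset (0.04, adjusted p 0.696 by edgeR) or without control replicate 2 (0.21, adjusted p 0.0502 by edgeR). Tp53inp1, a stress protein that supports p53 and autophagy, fell from 334 ± 6.19 to 309 ± 2.39 CPM (SD, n = 3; log2 fold change -0.11, SE 0.0426). It did not pass with library totals (-0.06), with the length offset (-0.08), or when control replicate 3 (-0.10), knockdown replicate 1 (-0.11) or knockdown replicate 3 (-0.11) was left out.

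**Figure D2:**
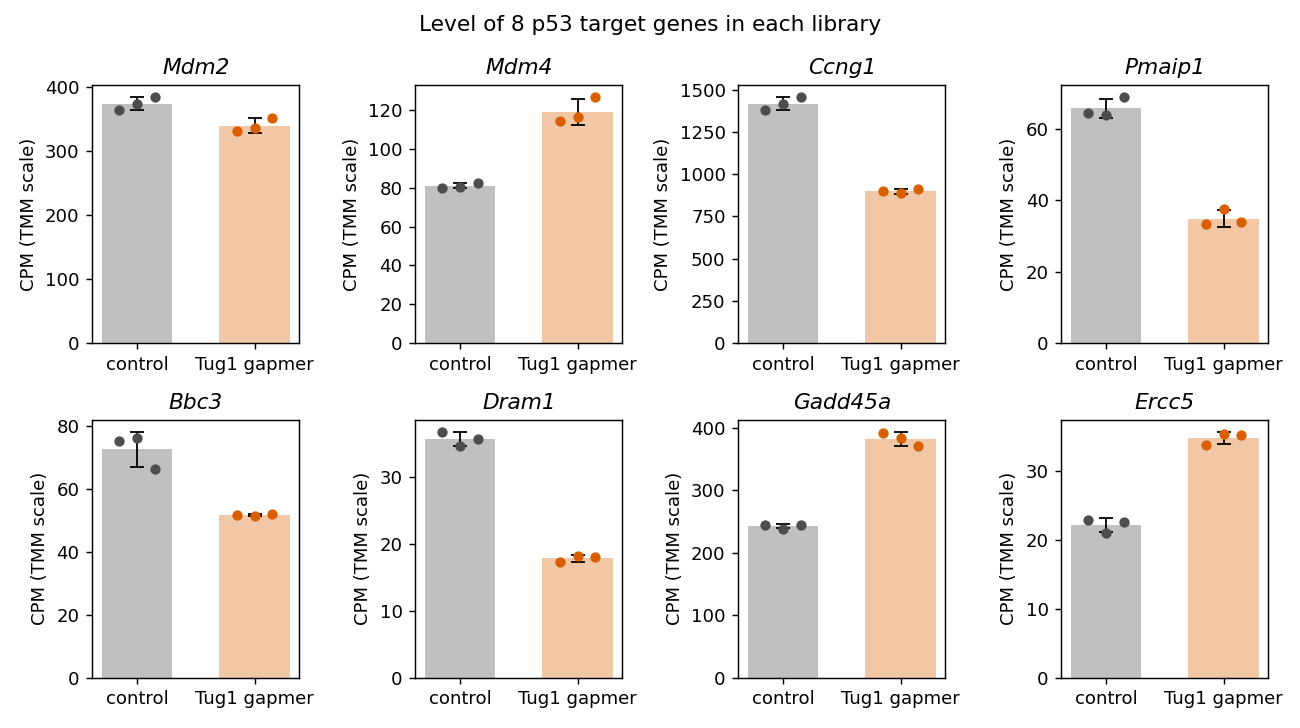
Level in CPM on the TMM scale (vertical axis, from 0) of 8 p53 target genes in the 3 control and 3 Tug1 gapmer libraries; points are libraries from replicate 1 at the left to replicate 3 at the right, bars the mean and error bars the SD. In each panel the groups are apart, with Mdm4, Gadd45a and Ercc5 higher after knockdown, Mdm2 only slightly lower, and Dram1 near 17.8 CPM against 35.7 CPM in controls.

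Of the 12 apoptosis genes, 10 were tested and 80% of these passed, beside 61.7% of all tested genes. Among all genes with a mean of at least 100 counts 69.9% passed. Of the 10, 6 fell, 2 rose and 2 did not pass, and the falls included the upstream triggers of the mitochondrial pathway. Pmaip1 (NOXA), a BH3-only protein that neutralises Mcl-1, was at 64.5, 63.9 and 68.9 CPM in controls and at 33.3, 37.5 and 33.9 CPM after knockdown. The groups were far apart, at 53.05% of the control level, with a log2 fold change of -0.91 (SE 0.0656, adjusted p 4.24e-11 by edgeR). Bbc3 (PUMA), a BH3-only protein that acts on all pro-survival Bcl-2 relatives, was at 75.3, 76.3 and 66.3 CPM in controls and at 51.7, 51.3 and 51.9 CPM after knockdown. Its knockdown libraries were nearly equal and all under the controls (log2 fold change -0.49, SE 0.062, adjusted p 3.55e-07 by edgeR).

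Bax, the pore-forming effector downstream of both, was at 98.7, 100 and 93.4 CPM in controls and at 89.2, 91.8 and 83.5 CPM after knockdown. The lowest control library was just above the highest knockdown library, and the log2 fold change was -0.14 (SE 0.0552, adjusted p 0.0281 by edgeR). Bax did not pass with library totals (-0.09), with the length offset (-0.01), or without control replicate 1 (-0.14), control replicate 2 (-0.13) or knockdown replicate 3 (-0.10).

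Apaf1, the scaffold of the caspase-9 apoptosome, fell by 0.25 on the log2 scale (SE 0.0684) from 49.8 ± 3.72 to 41.9 ± 1.89 CPM (SD, n = 3), and by 0.42 with the length offset. Pidd1, the scaffold through which caspase-2 is activated, was at 55.3, 63.1 and 47.5 CPM in controls and at 37.4, 34.7 and 41.1 CPM after knockdown. Its control libraries were spread widely but did not overlap the knockdown libraries, and the log2 fold change was -0.55 (SE 0.0848). Phlda3, which competes with Akt for membrane lipids and so lowers survival signalling, fell from 323 ± 24.2 to 233 ± 8.87 CPM (SD, n = 3; log2 fold change -0.47, SE 0.0522). With the length offset its value was -0.29 (adjusted p 1.63e-05 by edgeR).

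The rises among the apoptosis genes were Ei24 and Aen. Ei24, a reticulum membrane protein with a role in autophagy, rose from 110 ± 7.46 to 149 ± 5.71 CPM (SD, n = 3; log2 fold change 0.43, SE 0.0551). Aen, an exonuclease that enhances apoptosis, went from 79.7 ± 4.50 to 88.9 ± 4.44 CPM (SD, n = 3), which gives a log2 change of 0.16 (SE 0.0583, adjusted p 0.022 by edgeR). It did not pass without control replicate 1 (0.12), control replicate 3 (0.15) or knockdown replicate 2 (0.12), and was at 0.25 with the length offset.

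Neither tested receptor among the apoptosis genes, Fas or Eda2r, passed. Fas was at 28.6, 38.4 and 35.1 CPM in controls and at 29.96, 30.6 and 30.5 CPM after knockdown, so 1 control library lay under all knockdown values and the other two above them. Its log2 fold change was -0.16 (95% interval -0.35 to 0.02, adjusted p 0.108 by edgeR). Without control replicate 1 it was -0.28 and passed (adjusted p 0.00685 by edgeR). Eda2r, the receptor for an ectodysplasin isoform, was at 86.3 ± 0.915 and 88.8 ± 3.57 CPM (SD, n = 3), which gives a log2 change of 0.04 (95% interval -0.07 to 0.15). Tnfrsf10b, a TRAIL receptor, had 0 counts in each control library and 1 count in each knockdown library, under the limit of 3 counts (0.221 to 0.231 CPM) taken for detection. Perp, a membrane protein of cell junctions, had 0 counts in all 6 libraries, which allows a level of up to that limit in each.

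Among the 6 genes of DNA repair and nucleotide supply, 3 rose, 2 fell and 1 did not pass. That is 83.3% passing, beside 61.7% of all tested genes and 69.9% of those with a mean of at least 100 counts. Gadd45a, which binds PCNA and stress kinases and slows entry into mitosis, was at 244, 238 and 244 CPM in controls and at 392, 384 and 370 CPM after knockdown. The groups were far apart, with a log2 fold change of 0.66 (SE 0.0438, adjusted p 1.36e-11 by edgeR), and Gadd45a reached 0.85 with the length offset. Its span in GRCr8 overlaps LOC100912188, a gene with a mean of 57.8 counts that was also higher (0.68).

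Ercc5 (XPG), the endonuclease that cuts on the 3′ side of a lesion in nucleotide excision repair, was at 22.9, 21.0 and 22.6 CPM in controls and at 33.8, 35.4 and 35.2 CPM after knockdown. Each knockdown library was well above each control, and the log2 fold change was 0.65 (SE 0.0755, adjusted p 1.09e-07 by edgeR). Xpc, which recognises lesions at the start of the same pathway, moved the other way, from 45.8 ± 3.23 to 38.5 ± 0.162 CPM (SD, n = 3; log2 fold change -0.25, SE 0.0677). Ddb2, which finds ultraviolet damage ahead of Xpc, had 118, 138 and 110 counts in controls and 121, 137 and 108 counts after knockdown. Its groups overlapped fully, and its log2 fold change was -0.06 (95% interval -0.33 to 0.21). Its span overlaps the more deeply counted Acp2 (-0.13).

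Rrm2b, the p53-inducible small subunit of ribonucleotide reductase, fell from 27.5 ± 1.75 to 21.1 ± 1.81 CPM (SD, n = 3; log2 fold change -0.38, SE 0.0858). Polk, a translesion DNA polymerase, was at 8.19, 7.42 and 8.39 CPM in controls and at 9.48, 10.0 and 11.8 CPM after knockdown. Its log2 fold change of 0.38 (SE 0.128, adjusted p 0.0133 by edgeR) did not pass with the length offset (0.26) or without control replicate 2 (0.33) or knockdown replicate 3 (0.29).

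Of the 4 metabolism genes, Dram1 and Tigar fell, Fdxr rose and Sesn1 did not pass. That is 75% passing, beside 61.7% of all tested genes and 69.9% of those with a mean of at least 100 counts. Dram1, a lysosomal membrane protein that promotes autophagy, was at 36.8, 34.7 and 35.7 CPM in controls and at 17.3, 18.2 and 18.0 CPM after knockdown. This was the lowest log2 fold change of the members, -1.003 (SE 0.0772, adjusted p 1.38e-10 by edgeR), and it ran from -1.05 to -0.95 over the alternatives. Tigar, a phosphatase that lowers fructose-2,6-bisphosphate and slows glycolysis, was at 35.6, 35.8 and 34.6 CPM in controls and at 24.5, 24.5 and 26.7 CPM after knockdown. Its groups were well apart as well, at a log2 fold change of -0.48 (SE 0.0736, adjusted p 5.19e-06 by edgeR).

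Fdxr, the mitochondrial ferredoxin reductase, rose from 18.9 ± 1.75 to 26.3 ± 3.43 CPM (SD, n = 3; log2 fold change 0.48, SE 0.098). Sesn1, a sestrin that restrains mTORC1, was at 44.0, 48.5 and 45.4 CPM in controls and at 44.7, 44.3 and 41.9 CPM after knockdown. The groups overlapped, and the log2 fold change was -0.07 (95% interval -0.21 to 0.06). With the length offset Sesn1 was at -0.25 and passed (adjusted p 0.00181 by edgeR). Its relatives, which are not on the list, were both higher. Sesn2 was at 0.20 (SE 0.0561) and Sesn3 at 0.50 (SE 0.0454), the latter from 418 ± 24.0 to 593 ± 7.14 CPM (SD, n = 3).

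Of the 6 genes of growth arrest, secretion and the cell surface, 3 rose, 2 fell and 1 did not pass. Of the 6, 83.3% passed, beside 61.7% of all tested genes and 69.9% of those with a mean of at least 100 counts. The cyclin G relatives had opposite signs. Ccng2, an atypical cyclin of non-dividing cells, was at 41.8, 44.2 and 49.0 CPM in controls and at 63.7, 56.1 and 60.5 CPM after knockdown. All knockdown libraries lay above all controls (log2 fold change 0.42, SE 0.0687, adjusted p 1.54e-05 by edgeR), while Ccng1 was at -0.66.

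The polo-like kinases Plk2 and Plk3, which respond to stress rather than drive mitosis, were both lower. Plk2 was at 342, 329 and 334 CPM in controls and at 227, 236 and 255 CPM after knockdown, with a log2 fold change of -0.49 (SE 0.0477, adjusted p 7.76e-09 by edgeR). Plk3 fell from 29.9 ± 2.14 to 25.2 ± 0.865 CPM (SD, n = 3; log2 fold change -0.25, SE 0.0789). Plk3 did not pass with the length offset (-0.11, adjusted p 0.211 by edgeR) or without control replicate 2 (-0.20, adjusted p 0.0559 by edgeR).

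Cd82, a tetraspanin that curbs cell migration, rose from 255 ± 5.88 to 315 ± 1.44 CPM (SD, n = 3; log2 fold change 0.31, SE 0.0433). Btg2, an antiproliferative partner of the deadenylase complex, was at 71.0, 73.0 and 77.8 CPM in controls and at 74.0, 75.5 and 76.8 CPM after knockdown. Its groups overlapped, with a log2 fold change of 0.03 (95% interval -0.09 to 0.14), and with the length offset it was at 0.19 and passed (adjusted p 0.00576 by edgeR). Gdf15, a secreted stress cytokine of the TGF-beta superfamily, had 21, 15 and 15 counts in controls and 34, 36 and 22 counts after knockdown.

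The lowest knockdown value of Gdf15 was just above the highest control value at this low depth. Its log2 fold change was 0.79 (SE 0.285, adjusted p 0.0201 by edgeR), the highest of the members and the least precise. It did not pass in DESeq2's Wald test (adjusted p 0.0668), nor without control replicate 2 (0.71), control replicate 3 (0.71), knockdown replicate 1 (0.72) or knockdown replicate 2 (0.66). Its span overlaps Lrrc25, which had a mean of 20 counts.

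**Figure D3:**
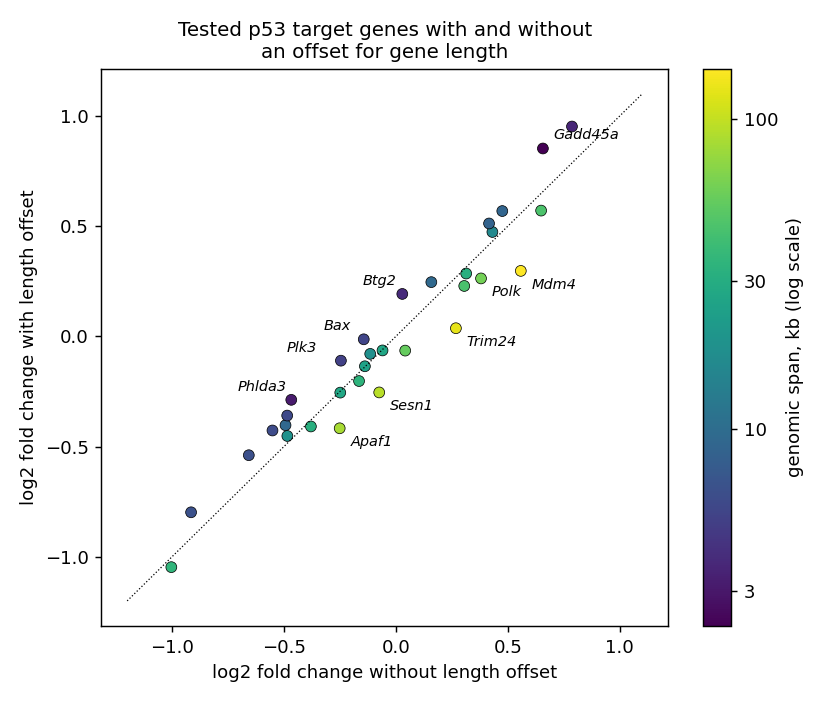
Log2 fold change of the 32 tested p53 target genes without (horizontal axis) and with (vertical axis) an offset for gene length, coloured by genomic span in kb on a log scale; the dotted line marks equal values. Long genes such as Mdm4 (0.56 against 0.30), Trim24 and Sesn1 lie below the line and short genes such as Gadd45a (0.66 against 0.85) and Btg2 above it.

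Cdkn1a and other genes of the pathway were set beside the members. Cdkn1a (p21), the p53 target that halts the cell cycle by inhibiting CDKs, was at 667, 686 and 684 CPM in controls and at 735, 745 and 719 CPM after knockdown. The knockdown libraries were all slightly higher, a log2 fold change of 0.11 (SE 0.0405, adjusted p 0.0216 by edgeR). It did not pass without control replicate 1 (0.10, adjusted p 0.114 by edgeR), without knockdown replicate 2 (0.10, adjusted p 0.0606 by edgeR) or with no filter on low counts (0.10, adjusted p 0.0554 by edgeR).

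In a list of 38 other p53 target genes, 37 were found in the table, 34 were tested and 24 (70.6%) passed, 7 higher and 17 lower, with a median log2 fold change of -0.16. That share stands beside 61.7% of all tested genes and 69.9% of those with a mean of at least 100 counts. Thbs1, which encodes the matrix protein thrombospondin 1, was at -0.71 (SE 0.0483) and Lif, a cytokine of the interleukin 6 family, at -0.74 (SE 0.0635). Both answer to several other pathways. Among the rises were Cdip1 (0.64, SE 0.0716), a pro-apoptotic membrane protein, Csf1 (0.44, SE 0.0506), the macrophage growth factor, and Sesn2.

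In a list of 32 genes for p53 and its regulators, 30 were tested and 23 (76.7%, beside the same 61.7% and 69.9%) passed, 10 higher and 13 lower, with a median log2 fold change of -0.12. The ASPP family, which steers p53 towards or away from apoptosis genes, moved apart. Ppp1r13b (ASPP1) was at 29.3, 28.5 and 24.4 CPM in controls and at 62.8, 64.8 and 61.6 CPM after knockdown (log2 fold change 1.20, SE 0.0711, adjusted p 1.86e-12 by edgeR). Ppp1r13l (iASPP) fell from 51.8 ± 5.13 to 27.5 ± 1.94 CPM (SD, n = 3, log2 fold change -0.91, SE 0.0786). Their relative Tp53bp2 (ASPP2), named after its value was seen, was lower as well, at -0.68 (SE 0.0723).

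Enzymes that act on the p53 protein also moved in both directions. The ubiquitin ligase Cop1 (0.64, SE 0.0545, and 0.39 with the length offset) and the deubiquitinase Usp10 (0.66, SE 0.0689) were higher. Lower were the ubiquitin ligase Huwe1 (-0.82, SE 0.0453), at 246 ± 2.11 and 139 ± 1.03 CPM (SD, n = 3), and the deacetylase Sirt1 (-0.78, SE 0.0716).

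**Figure D4:**
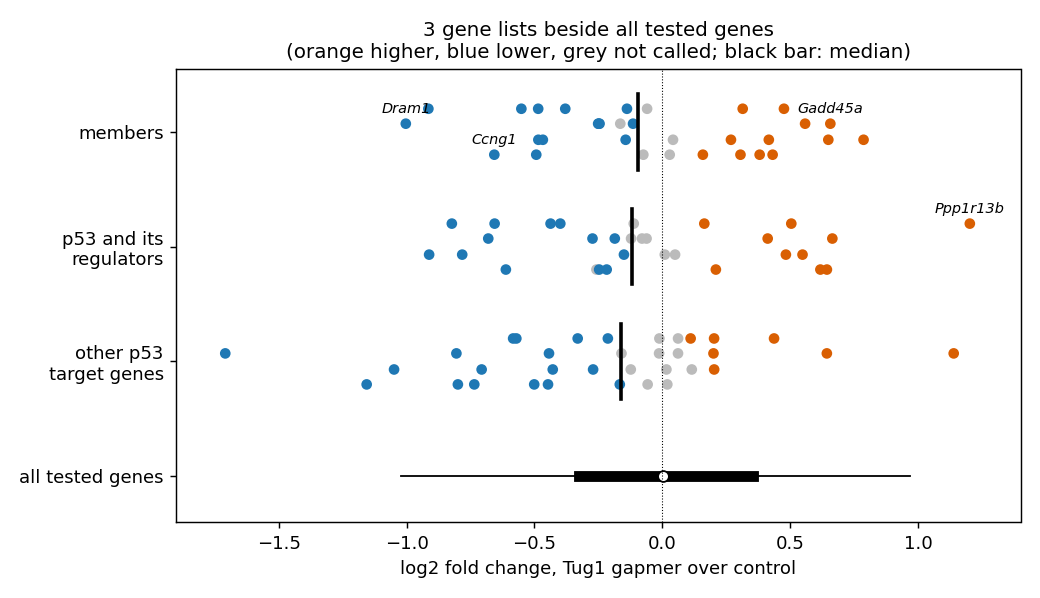
Log2 fold change (horizontal axis) of the tested genes of 3 lists, 1 point per gene, with the median as a black bar; the lowest line gives all 14216 tested genes as the median (open point), the 25th to 75th percentile (thick) and the 5th to 95th percentile (thin). The list medians lie at -0.09, -0.12 and -0.16 and most points fall within the thin line, which runs from -1.02 to 0.97.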

How the data were processed

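The authors deposited raw counts per gene, whole numbers for each of 6 libraries with replicates not pooled, as the values showed. Stranded libraries were made from 500 ng of RNA after poly-A selection, per the labels' protocols. FastQC 0.11.7, fastp 0.14.1 and STAR 2.5 are named in the submitters' processing notes. The counting tool, genome build, annotation and use of strand are not given in the sources used here.

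Genes passing edgeR's filter (minimum count 10, minimum total 15) were tested with edgeR 4.0.16 in R 4.3.3 (TMM scaling, quasi-likelihood test, two-sided, prior count 0.125, Benjamini-Hochberg adjustment over all 14216 tested genes). The SE is the log2 fold change divided by the square root of F, and 95% intervals use the t distribution with the test's median degrees of freedom. Intervals and the 3-count limit cover counting error and replicate spread only. The 15 alternatives included DESeq2 1.42.0, limma-voom (limma 3.58.1) and an offset for gene length (a lowess trend, span 0.3, on the genomic span in RefSeq's GRCr8 table). Scripts were tested on simulated counts. All members are named. Of the other lists, Cdkn1a, relatives of members and the 3 smallest p-values in each direction are named, and a few genes under this rule are left out by name. Members and lists were chosen with earlier results of these data known.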

Additional observations from a re-analysis of the deposited data

How the results depend on the processing

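Of the 32 tested members, 19 kept their direction and call in all 15 alternatives, and over 480 combinations of member and alternative 31 lost a call, 4 gained one and 4 reversed. The reversals were of members without a call: Eda2r with the length offset (-0.0645), Ddb2 without control replicate 2 (0.0391) or knockdown replicate 3 (0.00923), and Btg2 without control replicate 1 (-0.00151). With a library left out Ddb2 ranged from -0.149 to 0.0391 and Btg2 from -0.00151 to 0.0691. The count of called members ran from 22 (an adjusted p under 0.01) to 27, and from 22 to 26 with a library left out. The median log2 fold change of the members was -0.0417 with library totals in place of TMM, where the median of all tested genes was 0.0568, and ranged from -0.123 to -0.0535 with a library left out, nearest 0 without control replicate 2. Tug1 ranged from -2.22 to -2.08. Of 17 other named genes 14 kept direction and call throughout, all but Cdkn1a and the overlapping genes Pik3c2b and Acp2. The alternatives changed no count of calls by over 1.5 times. Libraries with the same replicate number had barely correlated deviations over all tested genes (-0.00531, 0.0298 and 0.027). These values do not settle whether such libraries were prepared together. With the number as a replicate block 27 members and 8848 genes were called, and Tug1 was at -2.19. Allowing 1 mismatch raised the members' windows with a p53 decamer from 7 to 15 of 26 (57.7%, against 49.0% of all windows). Depth limits Gdf15, with 15 to 36 counts per library, most. For the median, the cause was not tested.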
